A study of Mus musculus with 6 samples.

Results

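The genes described here are 33 targets, regulators and companions of the tumour suppressor p53, together with the cell cycle inhibitors used as senescence markers, in whole mouse kidneys. They were taken as a named list, which was chosen with earlier results of these data known. Every array probe whose accession belongs to 1 of them was read. All 33 had at least 1 probe among the 21154 genes named on the array, 41 probes in all, and 30 were well enough above background to be tested. Total RNA came from whole kidneys of male mice of strain C57BL/6J, 3 labelled Control and 3 labelled iNampt-conditional knockout, with 1 Cy3-labelled Agilent array for each animal. Nampt makes nicotinamide mononucleotide, the precursor of NAD in the salvage pathway, and the series title places its loss in renal proximal tubules. The labels give no age, no Cre driver and no deleted exon, and say no more about what the controls carry.

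p53, encoded by Trp53, is a transcription factor that is held at a low level by the ubiquitin ligase Mdm2 and stabilised when DNA is damaged or the cell is otherwise stressed. Its targets stop the cell cycle, repair DNA, restrain growth signalling or start apoptosis, and because p53 is controlled mainly as a protein, the levels of its targets are the usual transcript readout. Senescence is a lasting arrest maintained by Cdkn1a and by the inhibitors of the Cdkn2a and Cdkn2b locus, and in the kidney it is known after tubular injury and with age.

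Signals below are log2 of the processed spot signal after each array's 75th percentile was subtracted, so a value of 0 is that percentile and a difference of 1 is a doubling. A gene was said to have passed when the Benjamini-Hochberg adjusted p of limma's moderated test over all 15309 genes was under 0.05. Nampt fell in the knockouts by 1.06 ± 0.10 (SE, limma adjusted p = 0.0431), and the 3 knockout arrays lay below the 3 control arrays. Nampt ran from -1.15 to -0.87 over 17 other settings, passed in 9 of them, and had an adjusted p of 0.0733 when slide row was blocked. All 10 markers of kidney epithelium that were looked for were measured and lay at a median difference of 0.00, with 5 above and 5 below 0. No spot was saturated. Between 61.5% and 63.3% of spots were well above background on the controls and knockout 1, and 58.05% and 57.33% on knockouts 2 and 3, where the lowest signal called above background was also higher (29.6 and 32.2, against 18.6 to 20.9). All arrays shared 1 slide, where knockouts 2 and 3 had a row to themselves and knockout 1 stood beside the controls. Mmrn1 was well above background on all 3 knockout arrays and on no control array. The gene is absent from some C57BL/6 colonies, and a strain difference between the groups and the loss of Nampt cannot be told apart in any result below.

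Most of the listed genes had higher values in the knockout kidneys, by small amounts, and no single member passed the test. The list was chosen with earlier results of these data known, so the shares below describe it and do not test it. Of the 30 tested members, 25 had a difference above 0, where 47.1% of all genes did. Of 19 other p53 targets tested, 10 were above 0, and their median was 0.01. The median difference of the 30 tested members was 0.13, against -0.01 over all genes, and single members ran from -0.14 for Aen to 0.80 for Plk3. None of the 30 passed by limma, where 0.170% of all genes did (0.105% higher and 0.0653% lower). At an unadjusted p under 0.05 there were 12 members higher and 0 lower, where 6.69% of all genes were higher and 6.13% lower. The 12 became 4 when slide row was blocked, 7 without control 3, 6 without knockout 3, and 8 without control 1 (with 1 lower) or knockout 2. All 3 knockouts lay above all 3 controls for 14 members, where this held for 9.04% of all genes, and for 0 members did all 3 lie below, where 10.5% of all genes did. In whole kidney, a change in the share of a cell type and a change of RNA per cell cannot be told apart. Over all genes 26 passed by limma, 57 without knockout 1 and 1 without knockout 2 or knockout 3. There were 0 without control 2 or control 3, where 1436 and 1550 genes had an unadjusted p under 0.05.

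**Figure D1:**
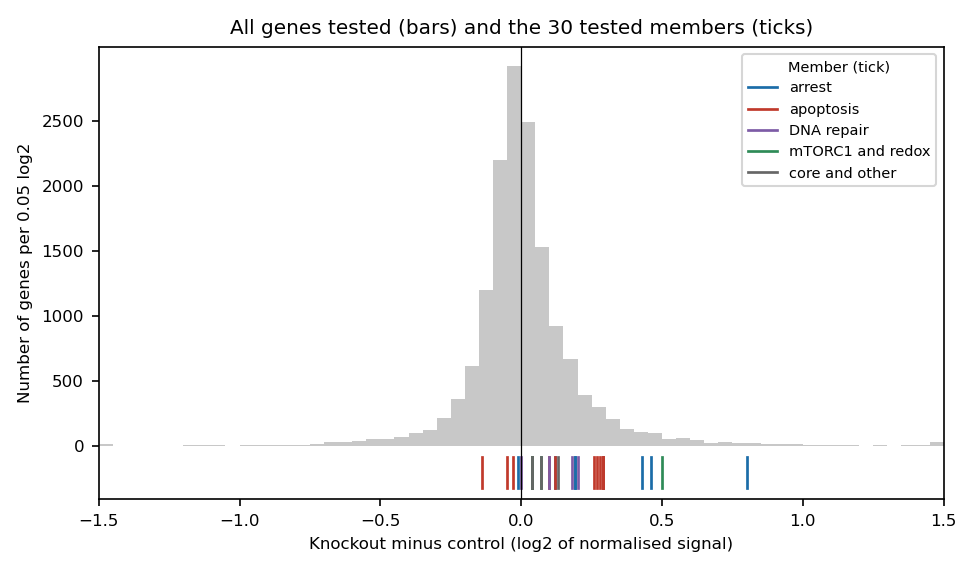
Number of genes (vertical axis) by difference between knockout and control (horizontal axis, log2 of normalised signal); the bars hold all 15309 genes tested, with the 39 beyond 1.5 either way placed in the end bars, and each tick below the bars is 1 of the 30 tested members, coloured by role. The members spread from -0.14 to 0.80 and 25 of the 30 lie to the right of 0.

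The transcript of p53 itself differed by a small and even amount. Trp53 lay at -1.90, -1.83 and -1.88 in controls 1, 2 and 3 and at -1.73, -1.74 and -1.75 in knockouts 1, 2 and 3. All 3 knockouts were above all 3 controls, and the difference was 0.13 ± 0.04 (SE, limma adjusted p = 0.327), or 1.09-fold. After normexp and quantile normalisation it was 0.08 (limma adjusted p = 0.435). Mdm2, the ligase that degrades p53 and is itself a p53 target, lay at 3.52, 3.54 and 3.6 in the controls and at 3.70, 3.61 and 3.55 in the knockouts. These groups overlapped, and the difference of 0.07 had a 95% interval from -0.07 to 0.21. Zmat3, an RNA-binding protein induced by p53, was at 0.04 ± 0.10 (SE) with overlapping groups. Psrc1, a microtubule-associated p53 target, had signal above background in a single animal, control 3, and could not be tested.

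Other regulators of p53 did not share a direction. Of 18 kinases, ligases, acetyltransferases and family members listed, all 18 were measured, 6 were above 0 and 12 below, with a median of -0.04, and 0 passed by limma (1 higher and 1 lower at an unadjusted p under 0.05). The 3 of smallest p were Ppp1r13l, which encodes the p53 inhibitor iASPP, at 0.26 ± 0.07, Rchy1, the p53 ligase Pirh2, at -0.15 ± 0.06, and Mdm4, the partner of Mdm2, at -0.14 ± 0.07 (SE, limma adjusted p = 0.239, 0.368 and 0.467).

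The promoters of the members are shown here for 4 genes on which the account turns, because p53 acts by binding DNA: Cdkn1a, the arrest gene with the best known p53 sites, Gadd45a and Bax, an arrest and an apoptosis target with 1 match each, and Plk3, the member that differed most. Each window runs from 250 bases before to 50 bases after a transcript start annotated by RefSeq on GRCm38.p6, 5′ to 3′ on the gene's strand. Capitals mark matches on either strand to the consensus p53 decamer in Cdkn1a, Gadd45a and Bax, and to TGACG, the core bound by CREB and ATF factors, in Plk3.
Cdkn1a, 1 of 2 annotated starts, chr17:29090729-29091028, + strand: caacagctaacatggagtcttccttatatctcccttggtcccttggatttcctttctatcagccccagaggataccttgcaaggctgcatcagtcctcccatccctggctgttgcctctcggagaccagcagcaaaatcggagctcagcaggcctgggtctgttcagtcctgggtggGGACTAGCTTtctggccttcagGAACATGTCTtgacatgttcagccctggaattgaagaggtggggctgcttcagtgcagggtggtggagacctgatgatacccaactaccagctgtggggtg
Gadd45a, chr6:67037358-67037657, - strand: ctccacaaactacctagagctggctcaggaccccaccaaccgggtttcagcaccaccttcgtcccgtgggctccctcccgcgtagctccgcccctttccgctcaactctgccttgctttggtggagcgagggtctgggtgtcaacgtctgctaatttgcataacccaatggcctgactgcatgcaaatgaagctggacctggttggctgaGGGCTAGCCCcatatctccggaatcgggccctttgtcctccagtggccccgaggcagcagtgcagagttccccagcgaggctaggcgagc
Bax, chr7:45466849-45467148, - strand: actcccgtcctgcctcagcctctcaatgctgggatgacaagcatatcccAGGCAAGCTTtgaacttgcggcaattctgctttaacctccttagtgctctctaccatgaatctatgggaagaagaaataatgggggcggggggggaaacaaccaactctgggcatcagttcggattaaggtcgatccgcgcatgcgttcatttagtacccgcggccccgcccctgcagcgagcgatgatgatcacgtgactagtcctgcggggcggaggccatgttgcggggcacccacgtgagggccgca
Plk3, chr4:117133914-117134213, - strand: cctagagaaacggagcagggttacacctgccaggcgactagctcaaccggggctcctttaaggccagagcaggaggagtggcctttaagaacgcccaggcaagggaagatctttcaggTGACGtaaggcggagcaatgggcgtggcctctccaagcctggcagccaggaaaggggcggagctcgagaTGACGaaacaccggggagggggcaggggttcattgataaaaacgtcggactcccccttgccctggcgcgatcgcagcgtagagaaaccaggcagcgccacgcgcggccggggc

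In the Cdkn1a window, exact matches to the decamer lie at -73 to -64 and at -51 to -42, counted from the start. Together they make the only exact pair at most 13 bases apart in the 34 windows of the 25 members with a window. Such a pair was present in 0.0731% of all 32851 windows. The window of the other annotated Cdkn1a start held no exact decamer. Which start gives the transcript read by the tested Cdkn1a probe was not determined. A single decamer was present in 10 of the 25 members (Aen, Bax, Ccng1, Cdkn1a, Ei24, Gadd45a, Mdm2, Polk, Sesn1 and Trp53), or 40.0%, and in 9.55% of all genes with a window. By window, it was in 32.4% of the members' and in 8.36% of all. The members' windows also differed from the rest in other letters, with GGGCGG in 92.0% of the members and in 38.2% of all genes. The shares over all genes are therefore not a matched background. The presence of the decamer did not go with the larger differences. The 10 members that held it had a median difference of 0.07, and the 12 tested members with a window but no decamer had one of 0.22. Plk3 held TGACG at 2 places, -132 to -128 and -63 to -59, and this sequence, searched on both strands, was present in 8 of the 25 members (32.0%) and in 23.0% of all genes. These matches describe letters in a short window and were not tested against binding. Only exact matches were counted, so a p53 site with a mismatch, in Cdkn1a or elsewhere, is not marked.

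Of the 10 arrest genes, 9 were tested, 8 were above 0, 0 passed by limma (4 higher and 0 lower at an unadjusted p under 0.05) and the median was 0.19. Plk3, the member with the largest difference and a stress-responsive kinase of the polo family, lay at 0.79, 0.71 and 0.95 in controls 1, 2 and 3 and at 1.41, 1.78 and 1.65 in knockouts 1, 2 and 3. The lowest knockout stood clear of the highest control, and the difference was 0.80 ± 0.11 (SE), or 1.74-fold, with a 95% interval from 0.52 to 1.08. It did not pass (limma adjusted p = 0.0916), and 0.895% of all genes had a larger difference. Over 17 other settings Plk3 stayed between 0.60 and 0.91, and it passed in 3 of them, with a trended and robust variance (adjusted p = 0.0349), with array weights (0.0157) and without knockout 1 (0.0498). The lowest value, 0.60, came from blocking on slide row (adjusted p = 0.213), a fit that rests on knockout 1 against the controls beside it. Plk2, a related kinase and direct p53 target, lay at -2.19, -2.07 and -2.31 in the controls and at -2.01, -2.03 and -1.96 in the knockouts. The groups did not overlap, and the difference was 0.19 ± 0.07 (SE, limma adjusted p = 0.361). That difference was 0.00 after normexp and quantile normalisation.

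Cdkn1a encodes p21, the cyclin-dependent kinase inhibitor through which p53 stops the cell cycle. It lay at -0.85, -0.80 and -0.82 in controls 1, 2 and 3 and at -0.79, -0.23 and -0.07 in knockouts 1, 2 and 3. The controls lay close together (SD 0.03, n = 3), knockout 1 stood barely above them, and knockouts 2 and 3 stood apart. The difference was 0.46 ± 0.18 (SE, limma adjusted p = 0.379), and it had a 95% interval from 0.01 to 0.91. Without knockout 1 it was 0.67 and passed (adjusted p = 0.0498), and when slide row was blocked it was 0.03 (adjusted p = 0.934), since knockouts 2 and 3 were also the arrays of the slide's second row. Slide row and animal cannot be told apart for these 2 arrays. A further Cdkn1a probe, for another transcript, was above background on 2 control arrays and 1 knockout array and was not tested.

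The Gadd45 proteins bind and restrain cell cycle kinases and act in stress kinase signalling. Gadd45b lay at -1.41, -0.99 and -1.37 in the controls and at -0.98, -0.91 and -0.58 in the knockouts. Control 2 and knockout 1 nearly touched, and the difference was 0.43 ± 0.16 (SE, limma adjusted p = 0.344), or 0.28 once slide row was blocked (adjusted p = 0.754). Gadd45a, the classic p53 target of the family, lay at 1.01, 1.28 and 1.22 in the controls and at 1.35, 1.34 and 1.37 in the knockouts. The knockouts were close together and above every control, by 0.19 ± 0.08 (SE, limma adjusted p = 0.407). Btg2, an antiproliferative p53 target, was at 0.04 ± 0.11, and Ccng1, the cyclin G1 gene and a widely used p53 target, was at -0.01 with a 95% interval from -0.18 to 0.16. Both groups overlapped for these 2 genes, and both signs turned in some settings.

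The inhibitors of the senescence loci gave no clear difference. Cdkn2a, which encodes p16 and Arf, had 2 probes, of which 1 was above background on control 2 alone and the other on no array, so it was not tested. Cdkn2b, which encodes p15, lay at -0.73, -0.20 and -1.49 in the controls and at -0.67, -0.97 and 0.09 in the knockouts. It was the most scattered member tested (SD 0.65 and 0.55, n = 3 each), and its difference of 0.29 had a 95% interval from -0.70 to 1.28, which holds large changes either way. Cdkn2c, which encodes p18, was at 0.12 ± 0.07 (SE) with overlapping groups.

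**Figure D2:**
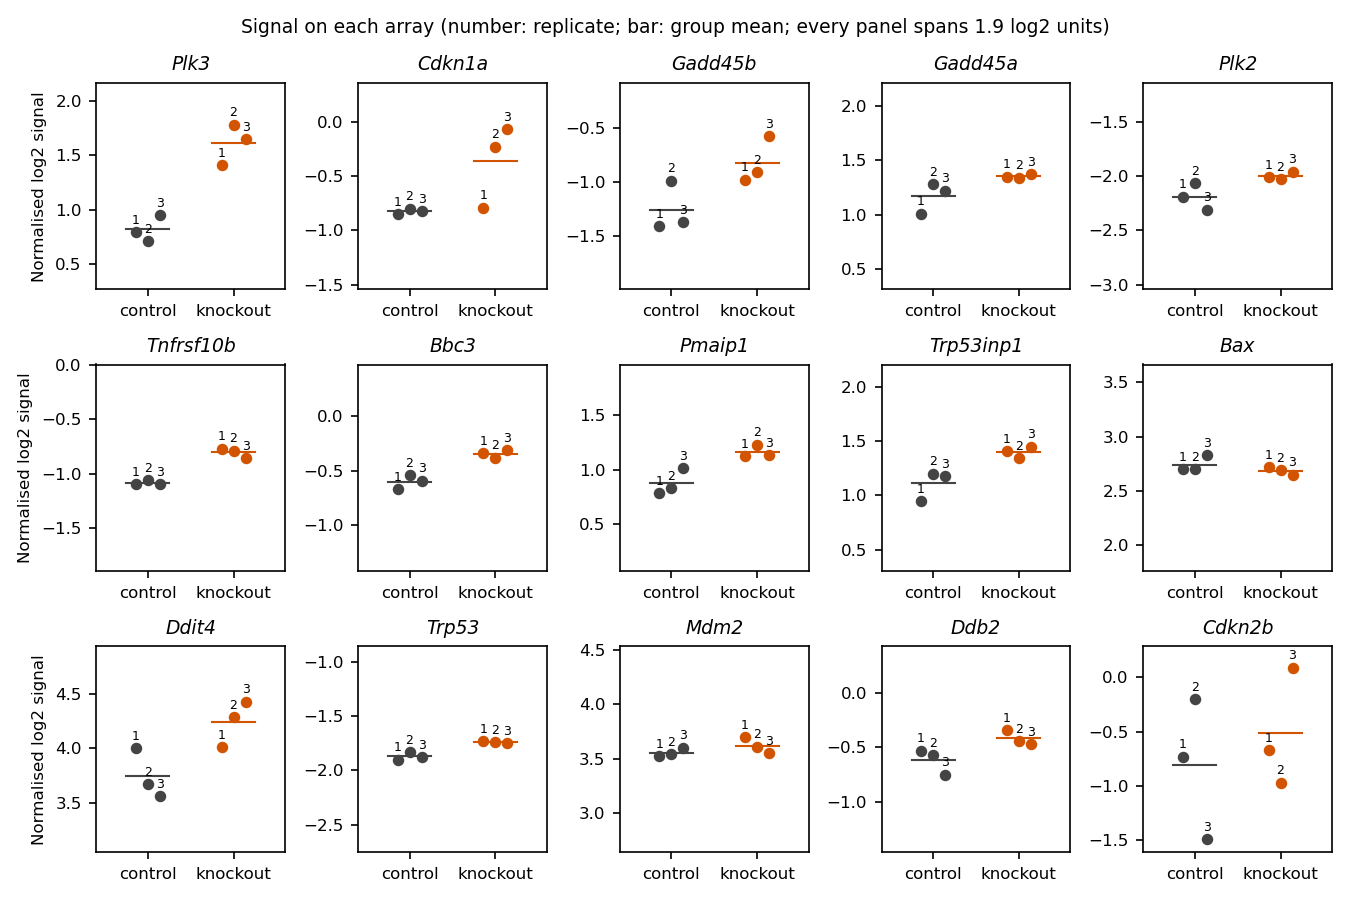
Normalised log2 signal (vertical axis) of 15 members in each control and knockout kidney (horizontal axis); each point is 1 array numbered by replicate, each bar a group mean, and every panel spans 1.9 log2 units. Plk3 separates the groups by 0.80, Cdkn1a separates knockouts 2 and 3 alone, and Tnfrsf10b, Bbc3 and Trp53 show small, even differences.

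Of the 12 apoptosis genes, 11 were tested, 8 were above 0, 0 passed by limma (5 higher and 0 lower at an unadjusted p under 0.05) and the median was 0.12. Tnfrsf10b encodes the death receptor that binds TRAIL. It lay at -1.10, -1.06 and -1.10 in controls 1, 2 and 3 and at -0.77, -0.79 and -0.86 in knockouts 1, 2 and 3. The groups stood well apart for their spread (SD 0.02 and 0.05, n = 3 each), with a difference of 0.28 ± 0.05 (SE, limma adjusted p = 0.138). Fas, the other death receptor measured, lay at 0.63, 0.76 and 0.75 in the controls and at 0.74, 0.86 and 0.88 in the knockouts. Knockout 1 was within the control range, and the difference was 0.12 ± 0.06 (SE, limma adjusted p = 0.517), or 0.03 with slide row as a block. Eda2r, a receptor of the same superfamily induced by p53, had 2 probes, neither above background on any array.

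Bbc3 and Pmaip1 encode PUMA and NOXA, BH3-only proteins that bind and neutralise the anti-apoptotic BCL2 proteins. Bbc3 lay at -0.67, -0.54 and -0.59 in the controls and at -0.34, -0.38 and -0.31 in the knockouts. Every knockout was above every control, and the difference was 0.26 ± 0.05 (SE, limma adjusted p = 0.188). Pmaip1 lay at 0.78, 0.83 and 1.01 in the controls and at 1.12, 1.23 and 1.13 in the knockouts. Control 3 came nearest to the knockouts, and the difference was 0.29 ± 0.08 (SE, limma adjusted p = 0.246). With array weights, Tnfrsf10b at 0.24 and Pmaip1 at 0.32 passed (adjusted p = 0.0453 and 0.0492), in a fit where 1.33% of all genes were called higher. Bbc3 passed in 0 of 17 other settings, with values from 0.22 to 0.29.

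Trp53inp1, a nuclear cofactor that strengthens p53's apoptotic and antiproliferative output, lay at 0.95, 1.2 and 1.18 in the controls and at 1.41, 1.34 and 1.45 in the knockouts. Its groups did not overlap, and the difference was 0.29 ± 0.08 (SE, limma adjusted p = 0.266); its other probe, at 0.24, also separated the groups. Phlda3, which restrains the survival kinase Akt, lay at 1.01, 1.01 and 0.96 in the controls and at 1.13, 1.18 and 1.5 in the knockouts. All 3 knockouts were higher, knockout 3 by the most, and the difference was 0.27 ± 0.10 (SE, limma adjusted p = 0.368), with 0.16 without knockout 3 and 0.13 when slide row was blocked.

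The other apoptosis genes had overlapping groups. Bax, the protein that opens the outer mitochondrial membrane, lay at 2.70, 2.70 and 2.83 in the controls and at 2.72, 2.69 and 2.65 in the knockouts. The groups overlapped, and the difference of -0.05 had a 95% interval from -0.19 to 0.08, so that an increase as large as that of Bbc3 lies outside it. Apaf1, the scaffold of the apoptosome, was at 0.10 with a wide interval from -0.31 to 0.52. Perp, an epithelial membrane protein induced by p53, was at 0.04, Ei24, an endoplasmic reticulum protein, at -0.03, and Aen, a nuclease that acts on DNA in apoptosis, at -0.14, and the second probe of Aen was at -0.09.

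**Figure D3:**
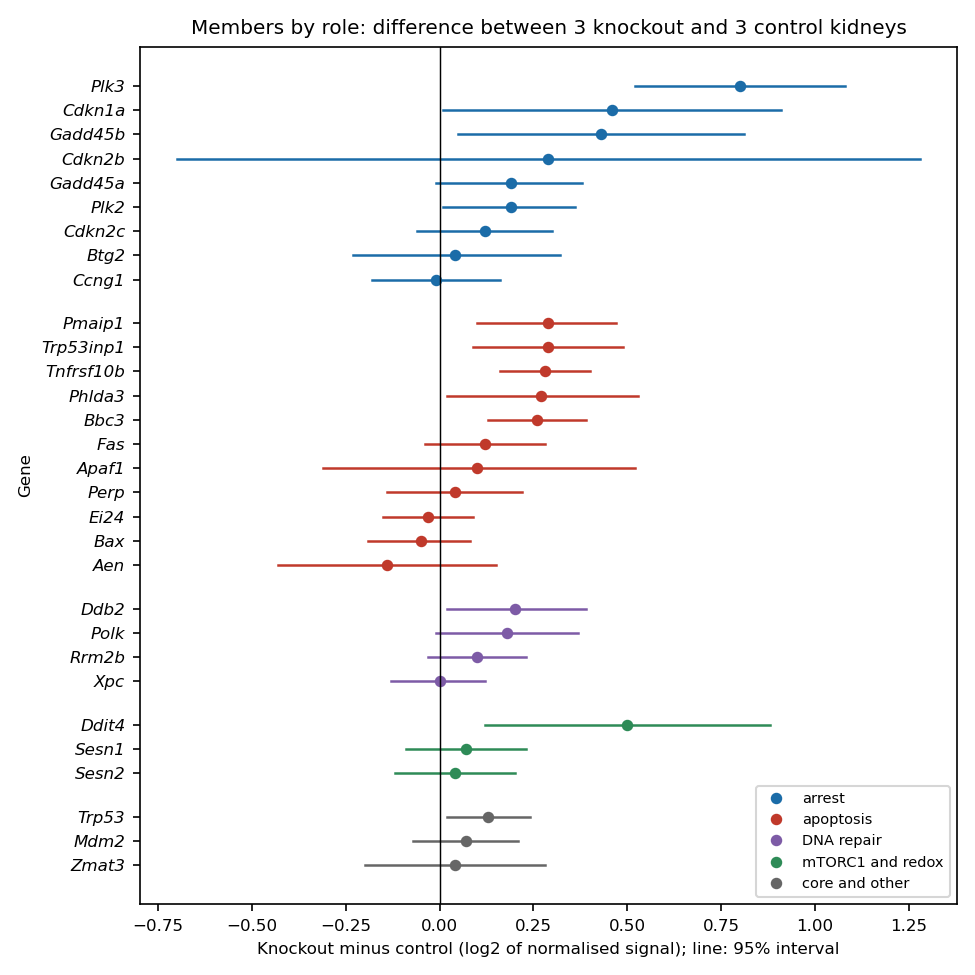
Difference between knockout and control (horizontal axis, log2 of normalised signal) for each of the 30 tested members (vertical axis), grouped by role; points are differences of means of 3 arrays and lines their 95% intervals from limma. Plk3 has the largest difference, at 0.80, and the apoptosis genes run from -0.14 for Aen to 0.29 for Pmaip1 and Trp53inp1.

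Set against each other by their medians, the arrest and apoptosis genes were not separated on these arrays. On each array, the median deviation of the apoptosis genes from their control means was -0.07, 0.03 and 0.06 for controls 1, 2 and 3, and it was 0.13, 0.15 and 0.17 for knockouts 1, 2 and 3. That of the arrest genes was -0.03, 0.03 and 0.00 in the controls and 0.16, 0.16 and 0.24 in the knockouts. Both medians were higher in every knockout than in every control. Apoptosis minus arrest came to -0.04, 0.00 and 0.06 in the controls and to -0.03, 0.00 and -0.08 in the knockouts, and these ranges overlapped. The difference between the 2 list medians was -0.07, and it ran from -0.09 to 0.03 over 18 other settings, reaching 0.00 with no filter on dim probes and 0.03 without knockout 2. Plk3, Cdkn1a and Gadd45b had larger differences than every apoptosis gene tested, but when slide row was blocked Cdkn1a at 0.03 and Gadd45b at 0.28 were below Tnfrsf10b at 0.32, and Plk3 alone of these stayed above it.

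Of the 4 DNA repair members, all 4 were tested, 3 were above 0, 0 passed by limma (1 higher and 0 lower at an unadjusted p under 0.05) and the median was 0.14. Ddb2, which recognises ultraviolet damage for nucleotide excision repair, lay at -0.53, -0.57 and -0.75 in the controls and at -0.34, -0.44 and -0.47 in the knockouts. All knockouts were above all controls, by 0.20 ± 0.08 (SE, limma adjusted p = 0.359). Xpc, its partner in damage recognition, had means of 1.97 in both groups, with a 95% interval of the difference from -0.13 to 0.12. Polk, a translesion polymerase, was at 0.18 ± 0.08, and its dimmer probe at -0.03. Rrm2b, the p53-inducible ribonucleotide reductase subunit, was at 0.10 ± 0.05 by the probe used and at -0.37 by a dimmer probe, whose 3 knockouts lay below its 3 controls; the mean of its probes was at -0.14 (limma adjusted p = 0.493).

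Of the members that restrain the growth kinase complex mTORC1, Ddit4 stood out. Ddit4, also known as REDD1 and induced by hypoxia, glucocorticoids and other stress as well as by p53, lay at 4.0, 3.67 and 3.56 in controls 1, 2 and 3 and at 4.01, 4.29 and 4.43 in knockouts 1, 2 and 3. Control 1 and knockout 1 were level, and the other animals of each group were further apart. The difference was 0.50 ± 0.15 (SE, limma adjusted p = 0.290), or 0.27 once slide row was blocked (adjusted p = 0.721). The sestrin genes Sesn1 and Sesn2, whose products sense leucine and limit oxidative damage, were at 0.07 and 0.04 with overlapping groups, and their 95% intervals ended at 0.23 and 0.20.

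**Figure D4:**
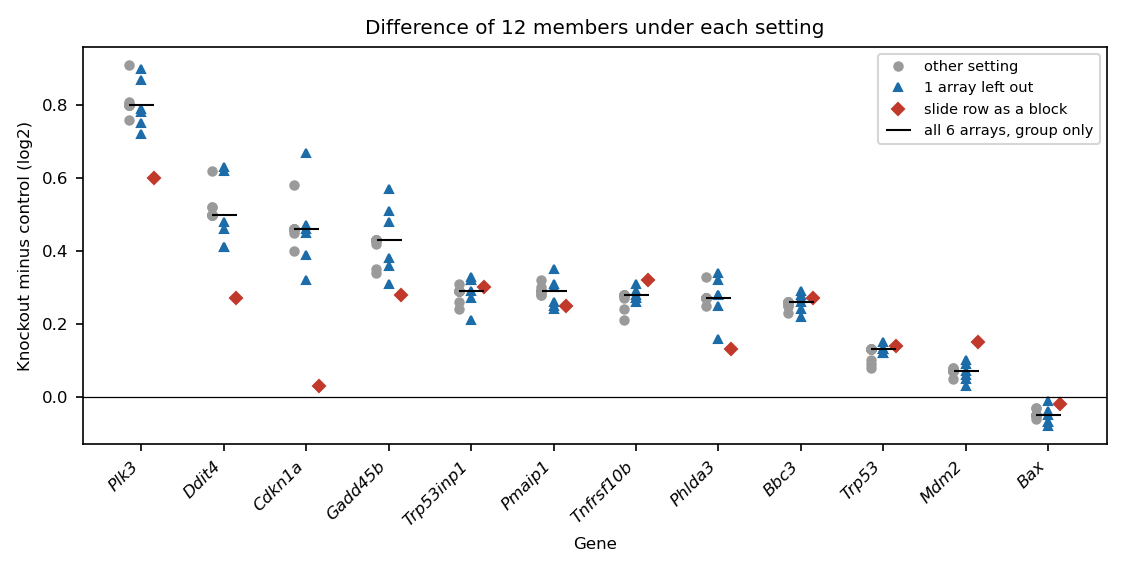
Difference between knockout and control (vertical axis, log2) of 12 members (horizontal axis) in the fit of all 6 arrays, with each array left out, with slide row as a block and under the other settings. Tnfrsf10b stays between 0.21 and 0.32, Bbc3 between 0.22 and 0.29 and Trp53 between 0.08 and 0.15. Cdkn1a goes from 0.46 to 0.03 and Ddit4 from 0.50 to 0.27 with slide row as a block.

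Further genes of the pathway, listed for their function, had medians near 0. Of 20 other p53 targets, 19 were tested, 10 were above 0 and 9 below, the median was 0.01, and 0 passed by limma (2 higher and 2 lower at an unadjusted p under 0.05). The 3 of smallest p were the apoptosis gene Siva1 at 0.25 ± 0.05, the ferrireductase gene Steap3 at 0.31 ± 0.08 and the antiproliferative gene Tob1 at -0.16 ± 0.05 (SE, limma adjusted p = 0.199, 0.254 and 0.280). Of 27 other BCL2 family members and caspases, 25 were tested, with 13 above 0, a median of 0.01 and 0 passing (3 higher and 3 lower at an unadjusted p under 0.05). Their smallest p-values belonged to the initiator Casp8 at -0.17 ± 0.04, the inhibitor of apoptosis Birc3 at 0.23 ± 0.07 and the anti-apoptotic Bcl2l2 at -0.15 ± 0.05 (SE, limma adjusted p = 0.236, 0.318 and 0.341). Of 15 other cell cycle inhibitors, pocket proteins and partners, all 15 were tested, 7 were above 0, the median was -0.01 and 0 passed (2 higher and 0 lower at an unadjusted p under 0.05). Cdkn1b, which encodes p27, was at 0.18 ± 0.05, the pocket protein gene Rbl1 at 0.23 ± 0.06 and Lin9, of the complex that represses cell cycle genes, at 0.14 ± 0.07 (SE, limma adjusted p = 0.236, 0.247 and 0.478).

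Senescent cells secrete cytokines, proteases and growth factor binding proteins, and this group was mixed. Of 26 genes of the secretome and related markers, 21 were tested, 13 were above 0, the median was 0.11 and 0 passed by limma (4 higher and 1 lower at an unadjusted p under 0.05). The chromatin protein gene Hmga1 was at 0.27 ± 0.07, and the cytokine gene Il1b at -0.84 ± 0.21 (SE, limma adjusted p = 0.247 and 0.225). Il6, a defining cytokine of the secretome, was above background on no array, and the same held for Cxcl2, Mmp10 and Mmp12. Array by array, the list median was 0.07, 0.00 and -0.11 in controls 1, 2 and 3, and knockouts 1, 2 and 3 gave 0.10, 0.08 and 0.07, with control 1 level with knockout 3.

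Markers of some other cell types and states also differed between the arrays, in both directions, and their part in the results above was not tested. Of 12 markers of injured tubule, 12 were tested, 11 were above 0 and 1 passed (Hbegf at 0.60 ± 0.06, limma adjusted p = 0.0458); the list's median deviation was 0.18, 0.69 and 0.66 in knockouts 1, 2 and 3, between -0.05 and -0.04 in the controls, and its summed signal ran from 121 to 146 in the controls and from 140 to 149 in the knockouts, in units of each array's 75th percentile. Cdkn1a and Ddit4 shared with that list a lower value in knockout 1 than in knockouts 2 and 3. The same order held for Plk3, Gadd45b, Phlda3 and Fas among other members, and not for Tnfrsf10b or Trp53. Knockouts 2 and 3 were also the arrays of the slide's second row, and a link to the injury markers was not tested. Of 18 macrophage and dendritic cell markers, 17 were tested and 15 were above 0, with 0 passing (11 higher and 0 lower at an unadjusted p under 0.05) and Cd163 above background on no array. Their summed signal ran from 114 to 137 in the controls and from 147 to 157 in the knockouts, and the list median was 0.29 in control 1, above the 0.28 of knockout 3. The 17 of 20 markers of dividing cells that were tested were all above 0, with 0 passing (2 higher and 0 lower at an unadjusted p under 0.05), Aurkb above background on no array, a list median of -0.02 in knockout 1 and 0.23 in control 1, and a summed signal from 7.31 to 9.20 in the controls and from 8.16 to 10.5 in the knockouts. Neutrophil markers lay lower by their median, with 5 of 9 tested, 3 below 0 and 2 above, a median of -1.16 and 0 passing (0 higher and 3 lower at an unadjusted p under 0.05). Their list median was -0.53, -1.80 and -1.15 in knockouts 1, 2 and 3 and between -0.16 and 0.19 in the controls. Summed signals were 136 to 140 in the knockouts and 140 to 142 in the controls. Those sums rest mainly on the 2 markers above 0, so they say little of the 3 that were lower. Mmp8 and Ngp were above background on no array. Of 7 adipocyte markers, 6 were tested and all 6 were below 0, with a median of -0.99 and 0 passing (0 higher and 1 lower at an unadjusted p under 0.05). Their list median was -1.51, -2.24 and 0.57 in knockouts 1, 2 and 3 and between -0.63 and 0.51 in the controls, the summed signal ran from 18.6 to 55.3 and from 32.3 to 53.6, and Lep was above background on no array. Endothelial markers (8 of 8 tested) had a median of -0.01. B cell markers (3 of 8 tested) had one of -0.03, and both lists had 0 at an unadjusted p under 0.05. Fibroblast and pericyte markers had 7 of 9 above 0 and a median of 0.15 (1 higher and 0 lower at that p). T and NK cell markers had 10 of 14 tested above 0 and a median of 0.34 (3 higher and 2 lower at that p). In each of these lists 0 passed.

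**Figure D5:**
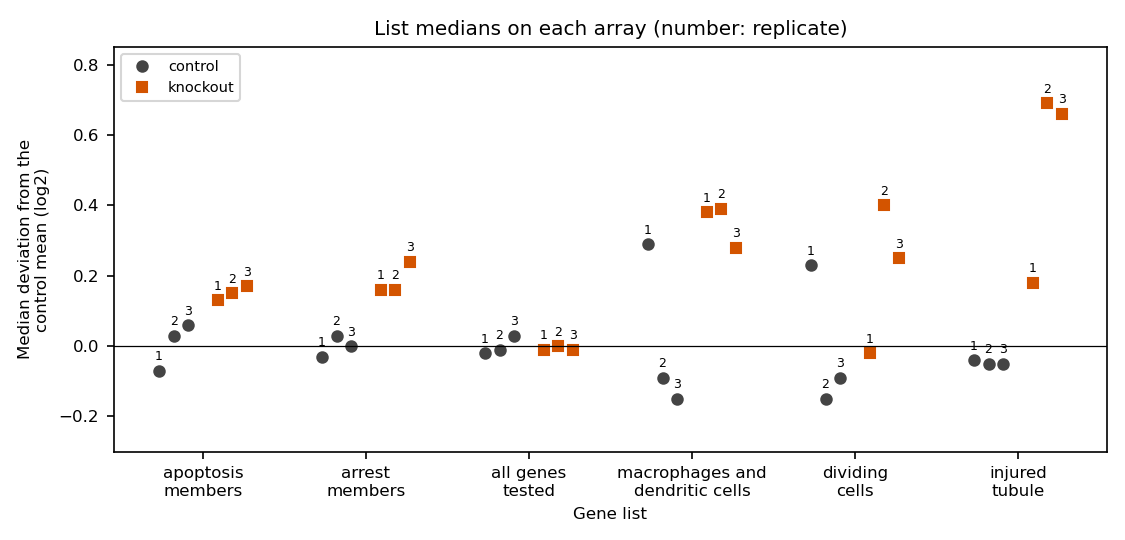
Median deviation from the control mean (vertical axis, log2) over the genes of each list (horizontal axis) on each of the 3 control and 3 knockout arrays, numbered by replicate. The apoptosis and arrest members lie between 0.13 and 0.24 in the knockouts and between -0.07 and 0.06 in the controls, while control 1 reaches the knockouts in the macrophage and dividing cell lists.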

How the data were processed

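Whole kidneys of 3 control and 3 knockout mice were measured, 1 array each, and groups and replicate numbers come from the labels. Per the file headers, the authors' spot intensity came from Agilent Feature Extraction 10.7.1.1, which subtracted background; no scaling between arrays is recorded there. Flags per spot were used as deposited. A value table deposited by the authors gives a ratio of each array's signal to a constant (within 1% for the probes compared) and served as an alternative. Flags of outlier spots removed 92 to 151 spots per array. Spots of a probe were averaged on the log2 scale and each array's 75th percentile was subtracted. A probe was kept (32948 of 55681) if a whole group's arrays showed it well above background. Unversioned accessions found in RefSeq's GRCm38.p6 table named 28026 probes; it is not the mm9 build of the probe positions, so no array coordinate is given. The brightest kept probe stood for each of 15309 genes.

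Groups were compared with limma 3.58.1 in R 4.3.3, two-sided, group as the only term, with Benjamini-Hochberg adjustment over all genes; 95% intervals use its moderated SE. An exact permutation test of 3 against 3 cannot go below 0.1. Labels number the mice but say nothing else of their origin, so p-values measure the spread between these 6 samples. Members, role lists and other lists were chosen with earlier results of these data known; lists are given by counts and medians without a test. Values on every array are given for the 10 members of smallest p and for 8 set members (Trp53, Mdm2, Cdkn1a, Cdkn2a, Bax, Bbc3, Pmaip1, Gadd45a), and each other pathway list names its 3 genes of smallest p, of which 1 is not reported here; Cdkn2b, Fas and Phlda3 were added after their values were seen. Same-numbered arrays did not deviate together (r = 0.10, -0.10 and -0.03 across genes), so replicate numbers were not taken as pairs. The fit was tested on simulated data with each gene's mean and spread from these arrays (15307 genes, 20 runs). The simulated noise was independent for each gene and array and held no effect of slide row. The shares that follow belong to that setting and need not hold for these arrays. With 200 genes changed, it recovered 64.1% of those changed 1.5-fold, 83.1% at 2-fold and 95.9% at 4-fold, and 5.42% of calls were false. Promoter sequences are RefSeq's (GRCm38.p6), present for 25 of the 33 members. Scripts ran in Python 3.11.15 with pandas 2.3.3 and matplotlib 3.10.9.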

Additional observations from a re-analysis of the deposited data

How the results depend on the processing

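Of the members tested, Plk3 alone differed by more than 1.5-fold, the smallest change simulated, and the 3 members not tested lay too near background. Of the 30 tested members, 21 kept their sign in all 17 other fits of genes, and 28 of 510 member values reversed; the cause was not tested. The number of members above 0 ran from 22 to 27. No member passed in the fit of all 6 arrays. With a trended and robust variance 1 did (Plk3), with array weights 3 did (Plk3, Pmaip1 and Tnfrsf10b), and with each array left out from 0 to 2 did. Over all genes 26 passed; there were 11 with quantile normalisation, 77 with no filter on dim probes, 57 with a trended and robust variance, 338 with array weights, 16 with slide row as a block, and from 0 to 57 with each array left out. With the replicate number as a block, which the arrays did not bear out as a pairing, 0 genes and 0 members passed (1636 genes and 8 members at an unadjusted p under 0.05). Leaving out each array gave apoptosis medians from 0.09 to 0.24, arrest medians from 0.17 to 0.25 and apoptosis minus arrest from -0.08 to 0.03. With no filter on dim probes, which adds the 3 members below background, the apoptosis median was 0.19 and the difference 0.00. With array weights the arrest median was 0.12 and the difference -0.01. With normexp and quantile normalisation the median of all members was 0.09. There the dim members Trp53 and Polk were both at 0.08, and Rrm2b and Plk2 were at 0.00. Trp53inp1 at 0.31 and Ddit4 at 0.52 were slightly higher than in the main fit.

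Reversed values were small. With quantile normalisation Ccng1 was at 0.01 and Xpc at 0.01; with normexp (run on the median spot signal) and quantile normalisation Apaf1 was at -0.04, Btg2 at -0.02, Ccng1 at 0.03 and Xpc at 0.03; when probes of a gene were averaged Rrm2b was at -0.14; and with array weights Apaf1 was at -0.02. With slide row as a block Sesn1 was at -0.03, Zmat3 at -0.10, Btg2 at -0.14, Ccng1 at 0.07 and Xpc at 0.05. Leaving out each array, Apaf1 ran from -0.04 to 0.24, Sesn2 from -0.01 to 0.07, Zmat3 from -0.04 to 0.11, Xpc from -0.03 to 0.02, Cdkn2b from -0.05 to 0.59, Btg2 from -0.06 to 0.14 and Ccng1 from -0.05 to 0.05.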
